A study of Homo sapiens with 24 samples.

Results

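The cytosolic ribosome of U937 cells was followed through the 77 genes that encode its proteins, of 55773 gene names counted in the study. The members were the rows named RPL or RPS with a number and, where present, a final A or X, together with RPLP0, RPLP1, RPLP2 and RPSA, and no gene of the Y chromosome. The list held 46 proteins of the large subunit and 31 of the small subunit. It was defined by name and not by any measured value. All 77 passed the filter on low counts that left 20147 gene names, and the smallest count of any member in any library was 4279.

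U937 is an established human myelomonocytic line, and 24 RNA-seq libraries from it were analysed, with 8 groups of 3. The study disturbed a complex of the histone H3 lysine methyltransferases SUV39H1, G9a (gene EHMT2) and GLP (gene EHMT1). In the drug arm, cells received DMSO as a mock treatment or UNC0638, an inhibitor of G9a and GLP, at 2 or 4 µM, and the UNC0638 cells were harvested after 3 days. In the hairpin arm, cells carried a lentiviral scrambled hairpin, G9a hairpin 2 or 3, or SUV39H1 hairpin 2 or 4, and those with a G9a or SUV39H1 hairpin were kept in puromycin over 3 days. When the DMSO cells were harvested, whether the scrambled cells were selected, and any batch are not stated in the labels. They do not say whether the libraries of a group came from separate cultures, so the p-values measure the spread between these samples, which may be technical. The knockdowns were made in a transformed line, with 2 hairpins per target and 1 control hairpin.

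A ribosome holds a single copy of most of these proteins, arranged around ribosomal RNA, and a growing cell makes them in matched amounts. Many of the genes start transcription at a C followed by a run of pyrimidines, the 5′ terminal oligopyrimidine (TOP) sequence, through which mTOR signalling and LARP1 govern translation of the mRNA. MYC drives transcription of ribosomal protein and assembly genes in myeloid leukaemia cells, and ribosome production usually slows as such cells leave the cycle and mature. Several ribosomal proteins also act outside the ribosome, among them RPL5 and RPL11, which bind the p53 ligase MDM2 together with 5S ribosomal RNA.

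The annotated start regions show which members carry the TOP sequence. Starts of 62 of the 77 genes were found in RefSeq promoter entries (GRCh38.p14), with 77 starts in all. RPL23, RPL23A, RPL37, RPL5, RPS15A and RPS2 were among those with no entry there. The windows below run 5′ to 3′ on the gene's strand, from 30 bases before the annotated start through the first 15 transcribed bases, and capitals mark the pyrimidine tract that crosses the start. They are shown for the genes on which the results turn: 5 with large changes under the SUV39H1 hairpins (RPL27 to RPS7), 3 described under the G9a hairpins (RPL21 to RPL11), the 3 with the smallest SUV39H1 changes (RPS27 to RPLP1) and RPL13, the largest change among members that passed the test at 4 µM UNC0638.
RPL27 (chr17:42998389-42998433, plus strand): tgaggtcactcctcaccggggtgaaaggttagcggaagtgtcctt
RPL12 (chr9:127451392-127451436, minus strand): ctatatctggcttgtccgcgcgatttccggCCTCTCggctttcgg
RPL19 (chr17:39200253-39200297, plus strand): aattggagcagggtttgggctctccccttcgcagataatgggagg
RPL14 (chr3:40457309-40457353, plus strand): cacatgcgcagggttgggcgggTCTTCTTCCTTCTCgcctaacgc
RPS7 (chr2:3575230-3575274, plus strand): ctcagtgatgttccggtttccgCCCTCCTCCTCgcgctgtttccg
RPL21 (chr13:27251528-27251572, plus strand): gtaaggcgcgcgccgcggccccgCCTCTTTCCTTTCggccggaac
RPS15 (chr19:1438366-1438410, plus strand): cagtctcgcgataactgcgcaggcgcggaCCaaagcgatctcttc
RPL11 (chr1:23691776-23691820, plus strand): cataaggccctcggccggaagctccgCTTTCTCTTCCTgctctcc
RPS27 (chr1:153990732-153990776, plus strand): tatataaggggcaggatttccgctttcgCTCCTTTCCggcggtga
RPS29 (chr14:49598696-49598740, minus strand): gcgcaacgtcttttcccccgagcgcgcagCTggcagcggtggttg
RPLP1 (chr15:69452788-69452832, plus strand): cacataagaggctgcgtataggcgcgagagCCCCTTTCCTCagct
RPL13 (chr16:89560652-89560696, plus strand): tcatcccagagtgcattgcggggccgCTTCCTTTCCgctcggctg
A start at C with at least 4 more pyrimidines after it was present at an annotated start of 46 of the 62 genes (74.2%), against 5.14% of the 27305 genes with an entry. In the windows shown, RPL27, RPL19, RPS15, RPS29 and RPS7 did not meet that definition at the start chosen, although RPS7 has a tract of 11 pyrimidines reaching across its start. Within the 300 bases from 250 before to 50 after a start, searched on both strands, the ETS motif CCGGAAG was found in 35.5% of members and 12.2% of all genes. The GC box GGGCGG was found in 58.1% and 48.3%, the YY1 motif AAGATGG in 12.9% and 7.11%, the E-box CACGTG in 6.45% and 8.78%, and TATAAA in 8.07% and 14.0%. A match is a string in this window and was not tested as a binding site.

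Library totals over all gene names ran from 31545854 to 53803704 counts. The hairpin targets matched their labels: EHMT2 fell by 0.97 on the log2 scale with the G9a hairpins (SE 0.05, edgeR adjusted p = 9.22e-14), from 144 CPM (counts relative to the TMM-scaled library size) with the scrambled hairpin to 73.7 with hairpin 2 and 73.2 with hairpin 3. SUV39H1 stood at 58.2 CPM with the scrambled hairpin, 18.6 with SUV39H1 hairpin 2 and 21.1 with hairpin 4. With the SUV39H1 hairpins the related enzymes were lower too: SUV39H2 was 31.4 CPM with the scrambled hairpin, 13.5 with hairpin 2 and 20.5 with hairpin 4, EHMT1 was 84.5, 54.0 and 60.7, and EHMT2 itself was 144, 108 and 128 (a change of -0.29, SE 0.06, edgeR adjusted p = 5.6e-05). Of the myelomonocytic markers, PTPRC, CD33, SPI1, CEBPA, ELANE, LYZ and CD4 were above 86 CPM in every library, while MPO never exceeded 1.88 CPM and CSF1R lay between 4.14 and 14.2. HBB, HBA1, CD3E, CD3D, CD8A, MS4A1, EPCAM, KRT18, CDH1, COL1A2 and DCN had a median of 0.

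The ribosomal protein genes held about 6% of all gene counts, and the share was lowest in the SUV39H1 knockdowns. It was 6.07% ± 0.06 (SD, n = 3) with DMSO, 6.01% ± 0.11 with 2 µM UNC0638 and 5.76% ± 0.14 with 4 µM. With the scrambled hairpin it was 6.40% ± 0.08, with G9a hairpin 2 6.04% ± 0.08 and with G9a hairpin 3 6.18% ± 0.31. With SUV39H1 hairpin 2 it was 4.76% ± 0.19 and with hairpin 4 4.92% ± 0.04. The 6 SUV39H1 libraries, between 4.58% and 4.96%, lay below the other 18, of which the lowest held 5.65%. The G9a libraries, from 5.91% to 6.52%, overlapped the DMSO libraries (6.01% to 6.13%). Of the 6, 5 lay between 5.91% and 6.13%, below every scrambled library (6.34% to 6.49%), and G9a hairpin 3 replicate 3 stood apart at 6.52%.

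**Figure D1:**
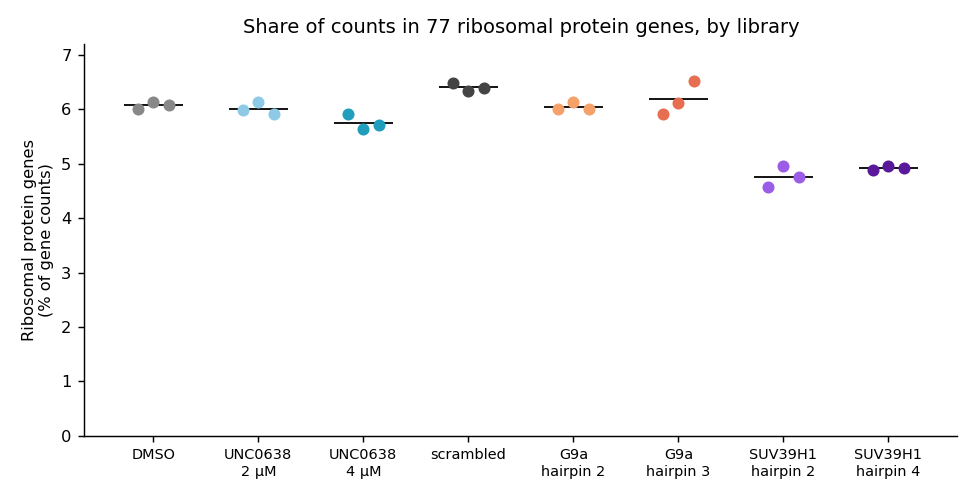
Share of all gene counts that fell in the 77 ribosomal protein genes (vertical axis, percent) for each library, by group on the horizontal axis; points are libraries and bars are group means (n = 3). The SUV39H1 libraries sit between 4.58% and 4.96%, and the remaining libraries at 5.65% or above.

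The level of single members spanned a wide range, which can be read only roughly because the deposited length of a gene is the summed length of all its annotated exons. Per kilobase of that length, RPS12 was highest with 1484 CPM per kb, followed by RPS18 with 1139. RPS15A was lowest with 54.0 CPM per kb, and RPL38 was also low with 66.8. Processed pseudogenes named after a member held counts equal to 42.3% of that member's own count for RPS3A, 25.7% for RPL41, 24.5% for RPL7, 20.6% for RPS2 and 19.5% for RPS23. For these genes the split of reads between gene and copy is uncertain. Readthrough and neighbouring names drew on the same reads for some members, since RPL36A-HNRNPH2 held 99.98% of the count of RPL36A, RPL17-C18orf32 98.5% of that of RPL17 and RPS10-NUDT3 102.5% of that of RPS10.

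The SUV39H1 knockdown was compared with the scrambled hairpin to ask what loss of this methyltransferase does to the ribosomal protein genes. All 77 were lower with the SUV39H1 hairpins (mean of both hairpins, edgeR quasi-likelihood test, Benjamini-Hochberg adjusted p under 0.05), where 32.7% of all genes tested were called lower and 35.1% higher. The log2 fold changes ran from -1.20 to -0.15 with a median of -0.51, against a median of 0.03 over all genes. Large-subunit genes had a median of -0.52 (46 of 46 lower) and small-subunit genes one of -0.50 (31 of 31 lower). At least 1.5-fold lower were 23 of the 77, against 9.76% of all genes. In 75 of 77 genes all 6 SUV39H1 libraries lay below all 3 scrambled libraries, a pattern that 25.8% of all genes had in this direction. RPS27 and RPS29 were the members whose libraries overlapped. Without TMM scaling, on library totals alone, the median of all genes moved to 0.13 and 74 of 77 members were lower, with a median of -0.40.

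**Figure D2:**
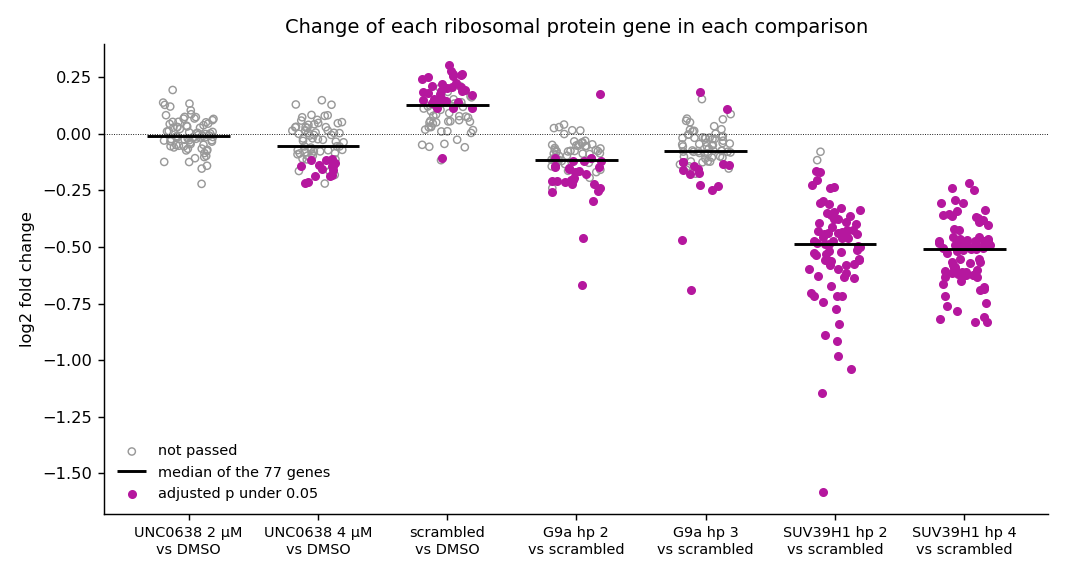
Log2 fold change of each of the 77 genes (vertical axis) in 7 comparisons (horizontal axis); filled points passed an adjusted p of 0.05 and black bars mark the median of the 77. The medians lie at -0.49 and -0.51 with SUV39H1 hairpins 2 and 4, and at 0.13 for the scrambled hairpin against DMSO.

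RPL27, a protein of the large subunit encoded on chromosome 17 (hg19 chr17:41150290-41154976), changed most. Its level was 772, 713 and 747 CPM in the scrambled libraries, 229, 261 and 254 CPM with SUV39H1 hairpin 2, and 422, 428 and 422 CPM with hairpin 4. The groups did not overlap, and the hairpin 2 libraries were the lowest of all 24. The fitted change was -1.20 (log2, SE 0.04, adjusted p = 2.44e-18) over both hairpins. RPL19, whose long helix reaches from the large towards the small subunit, was 1271, 1279 and 1302 CPM in the scrambled libraries, 614, 645 and 617 with hairpin 2, and 792, 798 and 796 with hairpin 4. Its 3 groups were fully separated, with a change of -0.86 (SE 0.03, adjusted p = 4.08e-19). RPL7 fell by 0.85 (SE 0.06), from 1193, 1165 and 1063 CPM to 586, 646 and 616 with hairpin 2 and 643, 659 and 639 with hairpin 4. RPL7 pseudogene copies are a large read source relative to the gene, and adding their counts left all 77 members lower. RPL12, at the base of the ribosomal stalk, fell by 0.81 (SE 0.03, adjusted p = 4.61e-18).

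The stalk, which recruits the translation factors, was not lowered evenly. RPLP0, its anchor, stood at 1565, 1520 and 1536 CPM in the scrambled libraries, at 904, 954 and 953 with SUV39H1 hairpin 2, and at 1125, 1134 and 1195 with hairpin 4. RPLP0 fell by 0.57 (SE 0.03), RPLP2 by 0.53 (SE 0.07) and RPLP1 by 0.22 (SE 0.05, adjusted p = 0.000472). RPLP1 was 1326, 1287 and 1396 CPM with the scrambled hairpin and between 1115 and 1201 CPM in the 6 SUV39H1 libraries. Its groups were separated, and its change was among the smallest. Differences between these genes' changes were not tested.

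Described members near the catalytic centre and the exit tunnel had changes from -0.75 to -0.26, and differences between them were not tested. RPL3, which lies near the peptidyl transferase centre, was 1554, 1500 and 1568 CPM in the scrambled libraries and 800 to 829 with SUV39H1 hairpin 2, and 1018 to 1049 with hairpin 4. Its change was -0.75 (SE 0.03). RPL10, which joins the large subunit late in its maturation, fell by 0.42 (SE 0.03), and RPL39, in the exit tunnel, by 0.30 (SE 0.06). RPL36A fell by 0.26 (SE 0.06), a value that cannot be separated from the readthrough name that shares its reads.

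The members that bind MDM2 or act on p53 were also lower. RPL5 was 1065, 1035 and 981 CPM in the scrambled libraries, 625 to 656 with SUV39H1 hairpin 2 and 651 to 677 with hairpin 4, a change of -0.65 (SE 0.04, adjusted p = 1.37e-13). RPL11, its partner in the 5S particle, changed by -0.35 (SE 0.04). The scrambled libraries lay within 1086 and 1091 CPM for RPL11 and the SUV39H1 libraries between 831 and 888 CPM. RPL23, which binds MDM2, fell by 0.47 (SE 0.06) and RPL26, which binds p53 mRNA, by 0.52 (SE 0.07). RPL26 overlaps an unnamed transcript whose count equalled 72.1% of its own, and shared reads were not measured.

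In the small subunit, RPS7, which also binds MDM2, fell by 0.72 (SE 0.06). RPS19 and RPS26, both mutated in Diamond-Blackfan anaemia, fell by 0.40 (SE 0.04) and 0.54 (SE 0.04). RPS14, the gene of the 5q- syndrome, fell by 0.46 (SE 0.05) and RPS6, the substrate of the S6 kinases, by 0.50 (SE 0.04). RPS4X, encoded on the X chromosome, fell by 0.40 (SE 0.03), RPSA by 0.39 (SE 0.04) and RPL13A, the GAIT-complex protein of the large subunit, by 0.30 (SE 0.03). RPS27A, made as a fusion with ubiquitin, fell by 0.63 (SE 0.05). FAU, a fusion with a ubiquitin-like protein that the name rule leaves out, fell by 0.56 (SE 0.05).

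The smallest changes were those of RPS27 and RPS29, small zinc-finger proteins of the small subunit. RPS27 was 927, 894 and 832 CPM in the scrambled libraries, 795, 893 and 824 with SUV39H1 hairpin 2 and 756, 774 and 750 with hairpin 4. The hairpin 2 libraries overlapped the scrambled ones and the hairpin 4 libraries did not. Its change over both hairpins was -0.15 (SE 0.06, adjusted p = 0.0356). RPS29 changed by -0.18 (SE 0.07, adjusted p = 0.0304), and its scrambled libraries ranged from 289 to 351 CPM against 263 to 332 in the SUV39H1 libraries. Only these members missed the threshold with hairpin 2 alone, with -0.08 for RPS27 (adjusted p = 0.342) and -0.12 for RPS29 (adjusted p = 0.235).

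Genes with and without a TOP start had similar medians. The median SUV39H1 change was -0.50 in the 46 genes with a TOP-like start and -0.54 in the matched genes without one. The ends of the range held both kinds, as the windows of RPL27 and RPL12, and of RPS29 and RPS27, show. Medians with and without each of the 5 promoter motifs lay between -0.57 and -0.42.

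Other measures moved along with the SUV39H1 result. Among other genes with a mean of at least 10 CPM, short ones were lower than long ones: the median change was -0.35 in 381 genes under 1000 bases, -0.22 in 791 genes of 1000 to 2000 bases, -0.13 in 2786 of 2000 to 4000 bases, -0.03 in 4276 of 4000 to 8000 bases and 0.08 in 1878 longer ones. The 41 members of 2000 to 4000 bases had a median of -0.54. With offsets that remove the length trend, 75 of 77 were still lower, with a median of -0.44. The summed level of the 10 myelomonocytic markers was 1803 CPM with the scrambled hairpin, 2957 with SUV39H1 hairpin 4 and 4738 with hairpin 2, and its part in the result was not tested. The markers do not weigh alike in this sum: over all libraries LYZ ran from 267 to 2503 CPM and CD33 from 86.1 to 114. In bulk RNA, fewer cells with a given level and less RNA in each cell cannot be told apart, and the total RNA per cell was not measured.

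The 2 SUV39H1 hairpins differed in part of the list. With hairpin 2, 75 of 77 genes were lower than scrambled (32.6% of all genes tested) and with hairpin 4, 77 of 77 (29.2% of all genes), with medians of -0.49 and -0.51. The range was wider with hairpin 2, from -1.59 to -0.08, than with hairpin 4, from -0.83 to -0.22. In the direct contrast, 9 members were lower with hairpin 2 (22% of all genes) and 11 higher (20.9% of all genes), and 57 did not pass. That split was 12 lower and 5 higher on library totals alone, and 9 lower and 17 higher with length offsets. It was 9 lower and 3 higher without SUV39H1 hairpin 2 replicate 2, and 9 lower and 4 higher without hairpin 4 replicate 1. When the fit held only these 6 libraries, 12 were lower and 28 higher. The share of all genes called was not counted in these alternative fits.

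RPL27 and RPL12 stood apart in this contrast. RPL12 was 626, 621 and 613 CPM in the scrambled libraries, 271, 284 and 285 with hairpin 2, and 438, 450 and 450 with hairpin 4. No libraries of the 3 groups overlapped, and the difference of hairpin 2 from hairpin 4 was -0.67 (log2, SE 0.04, adjusted p = 5.21e-14). For RPL27 the difference was -0.77 (SE 0.05, adjusted p = 5.24e-12) and for RPL19 -0.35 (SE 0.03). RPL3 (-0.33), RPS2 (-0.33), RPLP0 (-0.30), RPSA (-0.18) and RPS3 (-0.17) were also lower with hairpin 2. The opposite order was seen for RPS7, which was 631, 728 and 652 CPM with hairpin 2 and 569, 582 and 556 CPM with hairpin 4, higher by 0.24 (SE 0.07, adjusted p = 0.00522). RPS15A was higher with hairpin 2 by 0.23 (SE 0.07), RPS26 by 0.22 (SE 0.05) and RPL36A by 0.18 (SE 0.07). RPS15A overlaps another name whose count equalled 85.8% of its own, and shared reads were not measured.

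**Figure D3:**
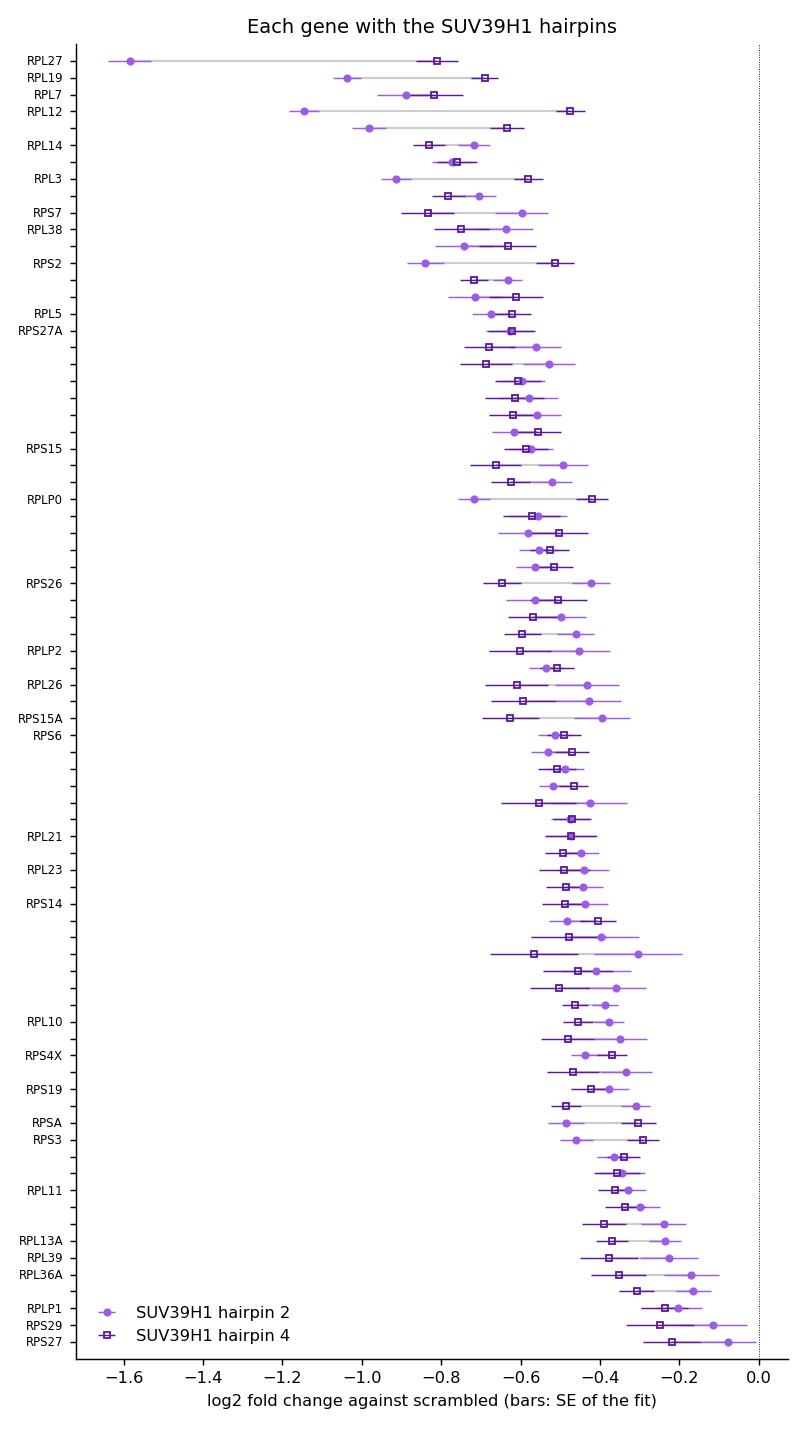
Log2 fold change against the scrambled hairpin (horizontal axis; bars are the SE of the fit) for each of the 77 genes (vertical axis, ordered by the mean of both; labels mark some of the genes described in the text) with SUV39H1 hairpin 2 (filled circles) and hairpin 4 (open squares). RPL27 and RPL12 show the widest gaps between hairpins, and RPS27 and RPS29 lie nearest to 0.

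Against the scrambled hairpin, fewer members were lower with the G9a hairpins than with the SUV39H1 hairpins, and by less. With the mean of both G9a hairpins, 29 of 77 were lower than scrambled (24.9% of all genes tested) and 1 was higher (25% of all genes), with a median of -0.08 against 0.01 over all genes. Without scrambled replicate 1, 14 were lower and 1 higher. With hairpin 2, 27 were lower and 1 higher, where 22.3% and 22.1% of all genes were called, and without scrambled replicate 1 these were 15 and 1. With hairpin 3, 14 were lower and 2 higher, where 22.1% and 22.6% of all genes were called. Neither share exceeded that of all genes. Without hairpin 3 replicate 3 these counts were 24 and 1. For fits with a library left out, the share of all genes called was not counted. The direct contrast of the G9a hairpins called none of the 77, where 0.00496% of all genes were called in each direction (edgeR, 3 at an unadjusted p under 0.05, and none with DESeq2). Both G9a hairpins and both SUV39H1 hairpins were compared with the same 3 scrambled libraries. The share of counts in the members with the G9a hairpins overlapped that with DMSO, and these groups were not tested against each other. The summed myelomonocytic markers were 2600 and 2683 CPM with G9a hairpins 2 and 3 and 1803 with the scrambled hairpin, and their part in the result was not tested.

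RPL21 carried the largest G9a difference. This large-subunit gene (hg19 chr13:27825446-27830828) was 377, 377 and 350 CPM in the scrambled libraries, 218, 247 and 230 with G9a hairpin 2, and 214, 216 and 255 with hairpin 3. The 6 knockdown libraries lay below every library of the other groups except some with SUV39H1 hairpins, which ranged from 250 to 282. The change was -0.68 (log2, SE 0.05, adjusted p = 9.83e-11). RPL21P28, a pseudogene copy of RPL21, changed by -0.80 (SE 0.09, adjusted p = 4.17e-08). Copies named after RPL21 held 4.36% of its count, and reads of such copies may come from the gene.

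RPS15, which is needed late in small-subunit maturation, came next among the G9a changes. It was 498, 455 and 522 CPM in the scrambled libraries, 379, 367 and 326 with G9a hairpin 2, and 356, 351 and 358 with hairpin 3. The groups did not overlap, and the change was -0.46 (SE 0.05, adjusted p = 6.2e-09). RPL38 changed by -0.27 (SE 0.06), RPL35A by -0.23 and RPLP2 by -0.22 (SE 0.07). With hairpin 2 alone, RPL37A changed by -0.26 (SE 0.09, adjusted p = 0.0281).

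RPL11 went the other way. It was 1091, 1088 and 1086 CPM with the scrambled hairpin, 1187, 1230 and 1271 with G9a hairpin 2, and 1156, 1217 and 1345 with hairpin 3. All G9a libraries lay above the scrambled ones, and RPL11 rose by 0.18 (SE 0.04, adjusted p = 0.000241). With hairpin 3 alone RPLP0 also rose, by 0.11 (SE 0.04, adjusted p = 0.028), and its libraries overlapped the scrambled ones. RPL5, the partner of RPL11, had a change of -0.07 with the mean of both G9a hairpins (SE 0.04, adjusted p = 0.154). Of the other members fixed by role, RPL3 fell by 0.16 (SE 0.03) and RPS27A by 0.15 (SE 0.05), and RPL10, RPL13A, RPL23, RPL26, RPL39, RPS4X, RPS6, RPS14, RPS19, RPS26 and RPSA had changes between -0.09 and 0.04 that did not pass.

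**Figure D4:**
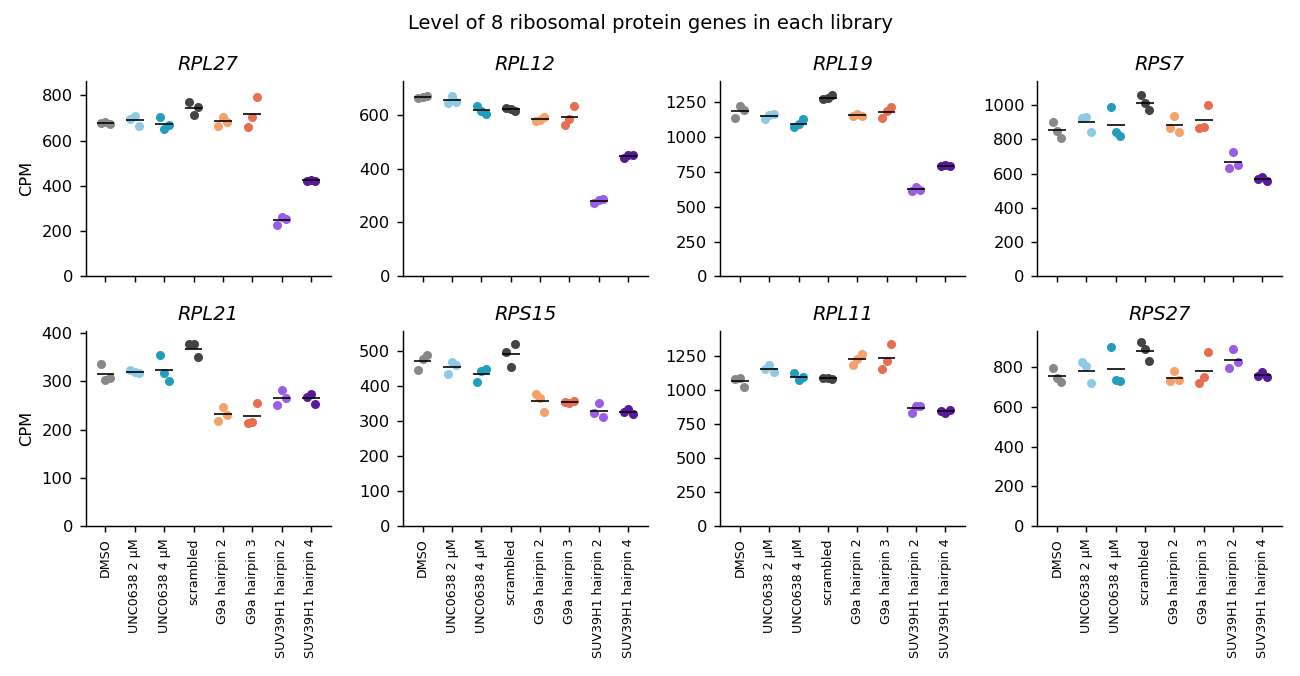
Level of 8 ribosomal protein genes in each library (vertical axes, CPM scaled by TMM; each panel starts at 0) by group (horizontal axis); points are libraries and bars are group means (n = 3). RPL27, RPL12, RPL19 and RPS7 are lowest with SUV39H1 hairpins, RPL21 is lowest with G9a hairpins, and RPL11 is highest with G9a hairpins.

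The SUV39H1 and G9a knockdowns were then set against each other, in a contrast added after the data had been seen. Of the 77 genes, 75 were lower with the SUV39H1 hairpins than with the G9a hairpins (32.9% of all genes tested) and 1 was higher (32.6% of all genes), with a median of -0.43. In 68 genes every SUV39H1 library lay below every G9a library, which 19.4% of all genes did. RPL27 differed by -1.11 (SE 0.04), RPL12 by -0.74 (SE 0.03), RPL19 by -0.73 (SE 0.02) and RPL7 by -0.69 (SE 0.05). RPL21 was the gene that was higher with the SUV39H1 hairpins, by 0.20 (SE 0.05, adjusted p = 0.000316).

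Few of these genes passed the test with UNC0638. At 4 µM, 15 of 77 were lower than with DMSO (9.73% of all genes tested) and none was higher (10.2% of all genes), with a median of -0.06 against -0.01 over all genes. At an unadjusted p under 0.05, 23 passed in either direction, and DESeq2 called 16, all lower. The count rested on single libraries: it was 4 without 4 µM replicate 2, 5 without DMSO replicate 2, 6 without DMSO replicate 3 and 23 without DMSO replicate 1. A fit to the DMSO and 4 µM libraries alone called 2. How many of all genes these alternative fits called was not counted.

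The genes called at 4 µM had changes of -0.22 or nearer to 0 on the log2 scale. RPL13 was 1066, 1050 and 1070 CPM with DMSO and 932, 893 and 918 with 4 µM UNC0638, without overlap, a change of -0.22 (SE 0.05, adjusted p = 0.00167). Its 2 µM libraries were 1058, 1035 and 979 CPM, all above the 4 µM libraries, and the highest of them lay within the DMSO range. RPL3 was 1493, 1638 and 1647 CPM with DMSO and 1372, 1373 and 1459 with 4 µM, a change of -0.18 (SE 0.04, adjusted p = 0.000672). RPS16 changed by -0.21 (adjusted p = 0.0269), and its libraries overlapped, with 595 to 732 CPM with DMSO and 534 to 626 with 4 µM. RPS19 fell by 0.18 (SE 0.05), RPLP0 by 0.16 (SE 0.04), RPL13A by 0.14 (SE 0.04) and RPS4X by 0.11 (SE 0.04).

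At 2 µM none of the 77 passed the edgeR test (3.83% of all genes were called higher and 3.34% lower), 5 had an unadjusted p under 0.05, and DESeq2 called none. Without DMSO replicate 1, 6 were lower, and with the replicate number as a block 1 was lower, with no count of all genes called in these fits. The direct contrast of 4 with 2 µM also called none (1.39% of all genes higher and 0.452% lower), with 9 at an unadjusted p under 0.05 and none by DESeq2. The 2 doses share the same 3 DMSO libraries.

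The response to 4 µM UNC0638 was tested against the G9a hairpin response, each relative to its own control. The difference passed in 10 members: 8 were higher with UNC0638 relative to the hairpins (22.5% of all genes tested) and 2 lower (22.3% of all genes). The split was 6 and 6 on library totals alone, 7 and 9 with length offsets, and 14 and 2 without G9a hairpin 3 replicate 3. All genes called were not counted in these alternatives. RPL21 differed most, by 0.72 (log2, SE 0.08, adjusted p = 1.37e-07). It was 336, 304 and 306 CPM with DMSO and 354, 318 and 302 with 4 µM, a change of 0.04 (SE 0.06). RPS15 differed by 0.35 (SE 0.07) and RPL38 by 0.29 (SE 0.09), and RPS27 differed by 0.27 (SE 0.09). On the other side, RPLP0 differed by -0.22 (SE 0.05) and RPS3 by -0.20 (SE 0.05). The drug and the hairpins also differ in delivery, selection and control, so target and delivery cannot be told apart here.

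The 2 controls differed, and the scrambled libraries are the reference of every hairpin comparison. With the scrambled hairpin, 32 of 77 members were higher than with DMSO (14.9% of all genes tested) and 1 was lower (16.5% of all genes), with a median of 0.13 against -0.01 over all genes. Without scrambled replicate 1, 18 were higher and 1 lower, and without DMSO replicate 2, 21 were higher and none lower. The matching shares of all genes were not counted. RPS23 was 440, 407 and 414 CPM with the scrambled hairpin and 335, 351 and 336 with DMSO, a rise of 0.30 (SE 0.06, adjusted p = 0.000221), and its libraries did not overlap. RPS23 overlaps ATG10 and has pseudogene copies, and reads shared with them were not measured. RPS27A rose by 0.28 (SE 0.06) and RPS24 by 0.27 (SE 0.07). RPL12 was the member called lower, by 0.11 (SE 0.04, adjusted p = 0.0289), and its adjusted p ran from 0.00338 to 0.108 over the alternatives, above 0.05 with RLE size factors (0.0588) and with any 1 of the 6 libraries left out except scrambled replicate 1 (0.0471). Set beside the DMSO libraries, the SUV39H1 levels of RPL27 and RPL12 were low as well: RPL27 was 672 to 684 CPM with DMSO and RPL12 was 663 to 669 CPM. This did not hold for every member. RPS27 was 728 to 795 CPM with DMSO and 795 to 893 with SUV39H1 hairpin 2. RPL36A was 250 to 261 CPM with DMSO and 242 to 286 with SUV39H1 hairpin 2. The SUV39H1 hairpins were not tested against DMSO.

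The genes that build and run the ribosome gave the frame for these changes. Lists of such genes were counted in the same fits. With the SUV39H1 hairpins, where 32.7% of all genes were lower and 35.1% higher, 39 of 40 ribosome assembly factors were lower and none higher, with a median of -0.91. Nucleolin (NCL) fell by 1.14 (SE 0.03), from 1687 CPM ± 39.2 (SD, n = 3) with the scrambled hairpin to 766 ± 18.6 with hairpin 2 and 770 ± 19.6 with hairpin 4. MRTO4, which acts in large-subunit assembly, fell by 1.11 (SE 0.03). All 7 ribosomal protein chaperones were lower, with PDCD2L at -1.04 (SE 0.04) and GRWD1, which escorts RPL3, at -0.74 (SE 0.04). Of the RNA polymerase I machinery, 16 of 19 were lower and none higher, with CD3EAP at -1.14 and POLR1E at -1.08. MYC fell by 1.36 (SE 0.04), from 283 CPM ± 9.88 with the scrambled hairpin to 86.5 ± 1.75 with hairpin 2 and 142 ± 2.23 with hairpin 4. LARP1, the TOP-binding protein, fell by 0.89 (SE 0.04). In the list of mTOR and MYC regulators 13 of 19 were lower and 6 higher, the latter close to the share of all genes.

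Translation factors moved in the same direction with the SUV39H1 hairpins. Of the 18 elongation factors and other TOP genes, 18 were lower, among them BTF3 at -0.68 and EEF1B2 at -0.65 (SE 0.04 each), and of 23 initiation factors 22 were lower, among them EIF3B at -0.94 and EIF5A at -0.90. Mitochondrial ribosomal protein genes, which are encoded separately, were lower in 73 of 76, with a median of -0.54, led by MRPL12 at -1.14. Ribosomal protein paralogs were split, with 4 of 7 tested lower and 1 higher. RPL7L1 fell by 0.84 (SE 0.03) and RPL26L1 by 0.72 (SE 0.06), while RPL39L rose by 0.12 (SE 0.05, adjusted p = 0.0301). Of 193 tested pseudogenes 110 were lower and 8 higher, and reads of the parent genes may be counted there.

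With the G9a hairpins, where 24.9% of all genes were lower and 25% higher, 36 of 40 assembly factors were lower, with a median of -0.32, and none was higher. DDX21, a nucleolar RNA helicase, fell by 1.07 (SE 0.04), from 658 CPM ± 29.7 with the scrambled hairpin to 323 ± 6.3 with G9a hairpin 2 and 305 ± 10.7 with hairpin 3, and NIP7 fell by 0.91 (SE 0.04). The scrambled reference was itself high for this list, with a median of 0.30 against DMSO. DDX21 (483 CPM) and NIP7 (65.7 CPM) were higher with DMSO than with either G9a hairpin. NCL was 1281 CPM with DMSO, 1335 with G9a hairpin 2 and 1297 with hairpin 3, and MRTO4 was 141, 152 and 148. The G9a hairpins were not tested against DMSO. Initiation factors were lower in 18 of 23, led by EIF4E at -0.67 (SE 0.05), and polymerase I genes in 13 of 19. Of 76 mitochondrial ribosomal protein genes, 51 were lower and 4 higher. Of the 18 elongation factors and other TOP genes, 6 were lower and 2 higher, with a median of -0.01, and the share lower was near that of all genes.

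At 4 µM UNC0638 the assembly factors and the ribosomal protein genes were called in opposite directions. Against 10.2% of all genes higher and 9.73% lower, 17 of 40 assembly factors were higher and none lower, with a median of 0.11, and NOP10 rose by 0.32 (SE 0.06). Of the mitochondrial ribosomal protein genes 19 of 76 were higher and 2 lower. Of the TOP genes 4 of 18 were lower and none higher, with EIF3L at -0.23 (SE 0.03) and EEF1G at -0.22 (SE 0.05). These counts moved with the libraries used, and the share of all genes called was not counted in the alternative fits. A fit to the DMSO and 4 µM libraries alone called 5 assembly factors, 3 mitochondrial genes and 2 TOP genes. The mitochondrial count was 10 without 4 µM replicate 1, 11 without DMSO replicate 2 or 3 and 36 without DMSO replicate 1, and the TOP count was 8 without DMSO replicate 1. MYC was 216 CPM ± 11.5 with DMSO and 218 ± 9.97 with 4 µM. With the scrambled hairpin against DMSO, where 14.9% of all genes were higher and 16.5% lower, 34 of 40 assembly factors and 43 of 76 mitochondrial ribosomal protein genes were higher, and MYC rose by 0.39 (SE 0.04, adjusted p = 6.73e-08).

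**Figure D5:**
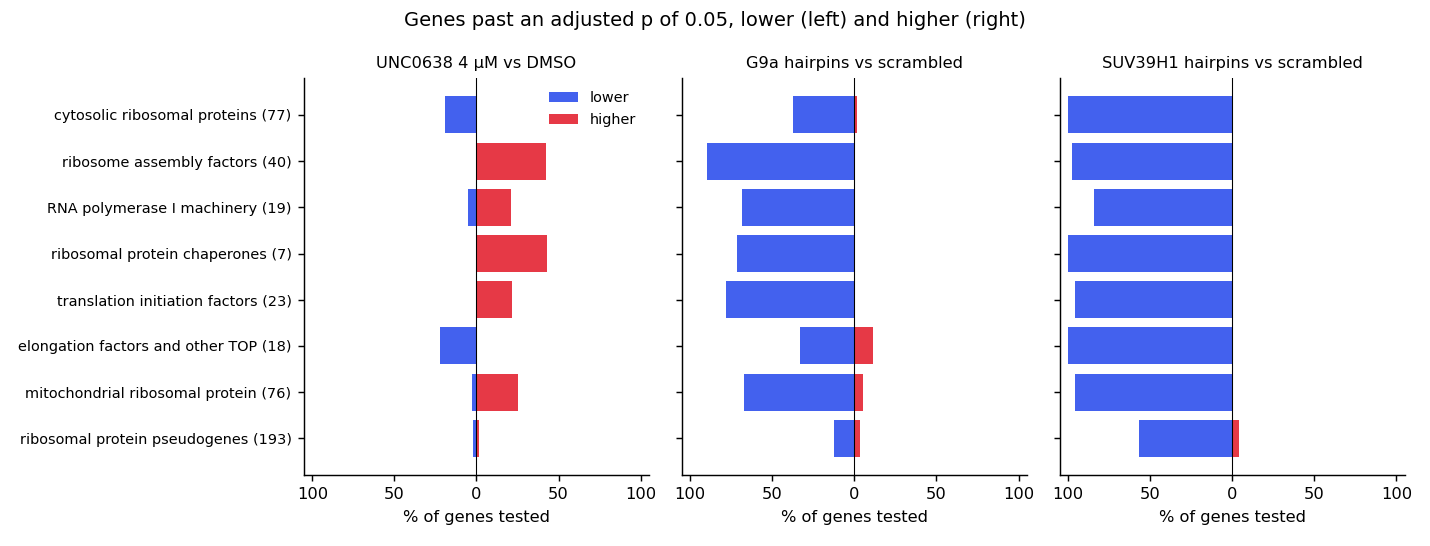
Share of the genes tested in each list (number in brackets) that passed an adjusted p of 0.05, lower to the left and higher to the right (horizontal axes, percent), in 3 comparisons. With the SUV39H1 hairpins 77 of 77 ribosomal protein genes and 39 of 40 assembly factors are lower, with the G9a hairpins 29 and 36, and at 4 µM UNC0638 15 ribosomal protein genes are lower while 17 assembly factors are higher.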

How the data were processed

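Per the submitters' processing notes, reads were aligned with STAR to hg19 and counted with featureCounts; their versions, and how reads with several matches were treated, are unknown here. The authors deposited whole-number counts per gene name, unnormalized. The kit, named in the labels' protocols, does not mark strand, and overlapping names in the deposited table may share counts. Genes were kept with filterByExpr (minimum count 10, minimum total 15), scaled with TMM and tested in edgeR 4.0.16 (R 4.3.3) with a quasi-likelihood fit to all 24 libraries with 1 mean per group, Benjamini-Hochberg adjusted over 20147 names and called under 0.05. The common biological coefficient of variation was 4.63%. The script was tested on simulated data. Levels are CPM on TMM-scaled library sizes.

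The members and lists were chosen with earlier results of these data known. Named genes were, per comparison, the 4 higher and 4 lower members with the largest called change, members fixed by role, the extremes per kilobase, members called against the majority, 2 genes per list by smallest p, and the targeted enzymes; other names were chosen after their values were seen. Alternatives were RLE factors, library totals, scaling without the members, length offsets, no filter, a replicate block, pseudogene counts added, only the compared libraries, DESeq2 1.42.0, and each replicate left out. Shares of all genes called were counted in the main fit only. A robust spread estimate and the SUV39H1 against G9a contrast were added after the data had been seen. Some members and list genes that the rule selects enter the counts and medians but are not reported here by name. Replicate numbers were taken to pair samples where all 3 same-numbered pairs of 2 groups correlated above 0.1, which held for 2 µM with DMSO (0.19 to 0.58) and for the scrambled hairpin with SUV39H1 hairpin 4 (0.12 to 0.39). The repeat table was not used.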

Additional observations from a re-analysis of the deposited data

Results flagged for a closer look

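The SUV39H1 hairpins, aimed at the same gene, differed in their effect on named members by the direct contrast (edgeR quasi-likelihood test, adjusted over all genes). The contrast called 9 of 77 members lower and 11 higher with hairpin 2, where 22% and 20.9% of all genes tested were called. The members' share was below that of all genes in each direction. Hairpin 2 was lower than hairpin 4 for RPL27 (-0.77 on the log2 scale, adjusted p = 5.24e-12), RPL12 (-0.67, adjusted p = 5.21e-14) and RPL19 (-0.35, adjusted p = 5.56e-09). It was higher for RPS7 (0.24, adjusted p = 0.00522), RPS15A (0.23, adjusted p = 0.00998), RPS26 (0.22, adjusted p = 0.000406) and RPL36A (0.18, adjusted p = 0.0346).

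The response to 4 µM UNC0638 differed from the response to the G9a hairpins for 6 named members by the test of that difference. Of all 77 members, 8 were called higher and 2 lower, where 22.5% and 22.3% of all genes tested were called. Here too the members' share was below that of all genes in each direction. RPL21 (0.72, adjusted p = 1.37e-07), RPS15 (0.35, adjusted p = 0.000285), RPL38 (0.29, adjusted p = 0.0116) and RPS27 (0.27, adjusted p = 0.0216) were higher with the drug relative to the hairpins. RPLP0 (-0.22, adjusted p = 0.00149) and RPS3 (-0.20, adjusted p = 0.00295) were lower. RPS27 did not pass (adjusted p from 0.0518 to 0.103) when 4 µM replicate 1, DMSO replicate 2 or 3, or scrambled replicate 1 was left out.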

How the results depend on the processing

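The lower level with the SUV39H1 hairpins held under each alternative run: 74 to 77 of 77 members for their mean, including 75 to 77 with 1 library left out. Hairpin 2 alone gave 73 to 75 and hairpin 4 alone 75 to 77 with 1 library left out, and SUV39H1 against G9a 75 to 76. Other counts of members called moved. At 2 µM (0 in the report) there were 4 without the low-count filter. For 4 against 2 µM (0) there was 1, for G9a hairpin 3 (16) 26, and for the drug against hairpin response (10) 17, all without the filter. The last was 16 with length offsets. Fits to the compared libraries alone gave 2 for 4 µM (15) and 40 for SUV39H1 hairpin 2 against 4 (20). With 1 library left out, counts ran from 0 to 6 at 2 µM, 0 to 0 for 4 against 2 µM, 4 to 23 at 4 µM, 7 to 16 for drug against hairpin response, 15 to 35 for the G9a mean, 16 to 26 and 11 to 25 for G9a hairpins 2 and 3, 0 to 0 between them, 19 to 36 for scrambled against DMSO and 12 to 28 for SUV39H1 hairpin 2 against 4. The share of all genes called was not counted in these runs, so moves particular to the members cannot be told from general ones. The cause was not tested.

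Replicate numbers paired few groups: of 84 same-numbered pairs across groups, 44 correlated above 0.1 (from -0.37 to 0.58, median 0.12), and in 2 of 28 pairs of groups all 3 did. With the replicate block the counts were 1 at 2 µM, 2 for 4 against 2 µM and 16 (10 higher, 6 lower) for drug against hairpin response; no other count of members moved by over 1.5 times under the block.

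Directions turned for 10 values, none of which passed a test in the report. For the G9a mean, RPSA was -0.00788 with RLE factors, -0.0123 with scaling without the members, -0.00785 with DESeq2 and -0.00885 to 0.0475 with 1 library left out. Length offsets gave 0.0187 for RPL13A, 0.00941 for RPL39 and 0.0113 for RPS4X. With 1 library left out, RPL39 ran from -0.0841 to 0.0139 and RPL23 from -0.0045 to 0.0763. At 4 µM, RPL26 ran from -0.0802 to 0.0834 and RPS27A from -0.101 to 0.0335. For scrambled against DMSO, RPS19 was -0.0104 on library totals and ran from -0.0192 to 0.0592, RPLP2 from -0.0186 to 0.0923 and RPSA from -0.00294 to 0.0505. Counted per value and alternative run, 24 turned direction and 2813 were unchanged, including counts of list genes that stayed within 1.5 times. A further 76 lost the call, 26 gained one and 47 counts of list genes moved. Most of the latter were at 4 µM, where assembly factors ran from 5 to 21, mitochondrial ribosomal protein genes from 3 to 36 and TOP genes from 2 to 8; no list count of the SUV39H1 mean moved by over 1.5 times. Depth was no limit for the members, whose smallest count was 4279.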
